A study of Caenorhabditis elegans with 2 samples.

Results

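The 6 genes described here are rgef-1, maco-1, ric-8, unc-33, unc-44 and unc-119 of Caenorhabditis elegans, pan-neuronal marker genes and genes of the axonal cytoskeleton, taken by name from the 19973 protein-coding genes on the nuclear chromosomes. For each gene, every region was taken whose summit, the position of highest signal, lay in the gene body or within 3 kb of its annotated 5′ end. The regions come from chromatin immunoprecipitation with sequencing (ChIP-seq) of CEH-48, which recovers DNA bound by a tagged protein. The series holds 1 group of 2 biological replicates, whole late embryos of both sexes from strain OP631, collected 3.5 hours after the worms were synchronized by egg bleaching. OP631 carries the unc-119 allele tm4063 and the transgene wgIs631, which encodes CEH-48 fused at its C-terminus to GFP and FLAG. Both replicates share this single transgenic line. The antibody is given as anti-GFP in one field of the labels and as ceh-48 in another. The series has no group without the transgene, so no comparison between conditions was made and no test was run. Expression was not measured here, so the label pan-neuronal rests on what is known of these genes and not on these files. In whole embryos, binding in few cells and weak binding in many cells cannot be told apart.

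CEH-48, a transcription factor with a homeodomain, belongs to the ONECUT family, is made throughout the worm nervous system, and, as ONECUT proteins do, prefers DNA with the core ATCGAT or ATTGAT. Pan-neuronal genes are active in every neuron whatever its transmitter or shape, and their proteins build the axon and release transmitter. Among the members, UNC-33, a collapsin response mediator protein, and UNC-44, an ankyrin that anchors membrane proteins to the spectrin skeleton, act together to order axonal microtubules. RGEF-1 is a guanine nucleotide exchange factor for Ras-family GTPases, and its upstream DNA is widely used to drive transgenes in all neurons. RIC-8 is an exchange factor and chaperone for G protein alpha subunits that acts in transmitter release and in positioning the spindle of the early embryo. MACO-1 is the worm macoilin, a membrane protein of the neuronal endoplasmic reticulum. UNC-119 carries lipid-modified proteins and is needed for normal axons.

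The authors' IDR peaks had 7 summits at the members. This list is thresholded by the irreproducible discovery rate, a measure of how well ranks repeat between sets of regions. The reference sequence around 5 of these is shown, all 4 with a copy of ATCGAT near the summit and 1 of those without. The stretches at the summits inside unc-33 are not shown and have no copy either. Each is read 5′ to 3′ on the strand of the gene (minus for rgef-1, plus for the others) in the RefSeq sequence of the ce11 (WBcel235) assembly, with any copy of ATCGAT in capitals. The stretches are chrV:9561966-9562066, chrIV:2641136-2641236, chrIV:3515747-3515847, chrIII:10906470-10906550 and chrIV:5974155-5974255. They are centred on the summit, except that for unc-119 the stretch starts at the first coding base of transcript M142.1a.1, and its bases after position 10906529 are intron.
rgef-1 upstream: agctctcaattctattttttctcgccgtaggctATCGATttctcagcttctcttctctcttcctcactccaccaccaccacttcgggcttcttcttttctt
ric-8 upstream: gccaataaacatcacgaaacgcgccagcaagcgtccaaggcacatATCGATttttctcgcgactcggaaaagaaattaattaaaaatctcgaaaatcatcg
unc-33 upstream: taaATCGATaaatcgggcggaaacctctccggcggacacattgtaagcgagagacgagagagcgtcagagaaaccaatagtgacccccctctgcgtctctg
unc-119 coding exon and intron: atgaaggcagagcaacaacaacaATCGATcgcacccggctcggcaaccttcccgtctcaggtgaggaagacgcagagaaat
unc-44 upstream: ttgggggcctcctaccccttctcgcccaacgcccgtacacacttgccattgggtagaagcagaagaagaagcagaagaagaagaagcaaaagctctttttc

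In these stretches the copies lay close to the summits of ric-8 and unc-119 and further from the other two. Measured from the summit to the centre of the copy, the distance was 2.5 bp at ric-8, 4.5 bp at unc-119, 14.5 bp at rgef-1 and 44.5 bp at unc-33. A second copy at ric-8 was centred 49.5 bp from the summit and runs past the end of the stretch shown. The unc-44 stretch has no copy. Its nearest ATCGAT lay 6081.5 bp from the summit.

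Of the 6 members, 5 had at least 1 IDR summit in their window and maco-1 had none. Over all protein-coding genes, 13.5% had one by the same rule. Long windows hold more summits, and the members' windows, of 8648 to 32301 bp, were longer than the median of 6001 bp. Rgef-1 and unc-119 fell in the class of windows of 7321 to 9772 bp, in which 18.73% of genes had an IDR summit. Ric-8, unc-33, unc-44 and maco-1 fell in the longest class, 9778 to 105756 bp, in which 23.74% had one. The members were chosen with earlier results of these data known, so their count is a description beside these shares. In the narrower promoter window, which begins 1000 bp upstream of the gene's 5′ end and stops 200 bp downstream, 1 of the 6 members (rgef-1) had an IDR summit, and 6.29% of all genes did.

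**Figure D1:**
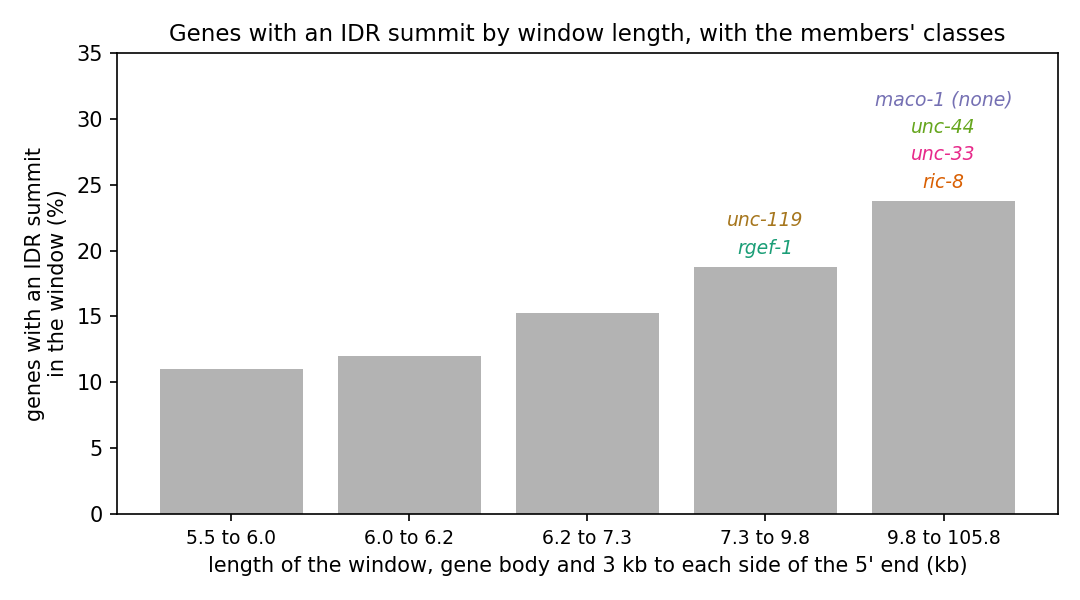
Share of protein-coding genes with an IDR summit in the window (vertical axis, percent) by class of window length (horizontal axis, kb), with each member's name over its class; "(none)" marks the member without an IDR summit. The share is 23.74% in the longest class, which holds ric-8, unc-33, unc-44 and maco-1.

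Signal, the strength of a region, is the authors' peak-calling value, and because no source used here gives its scale, signals and ranks are compared only within a list. Sorted by signal, the first 1840 regions of the pooled list make up the IDR peaks, with signals of 85.2 to 1044 and a median of 141. The pooled and replicate 2 lists each hold 30000 regions and the replicate 1 list holds 28372. These lists contain background regions by design, so rank and presence in both replicates matter more than being listed. By the pooled rank of the strongest region, 3 members were strong (ric-8, unc-33 and rgef-1). Another 2 were in the IDR list below its median signal (unc-119 and unc-44), and 1 was below that list (maco-1). In replicate 1 the order of the last 3 differed, with maco-1 (rank 1970) ahead of unc-119 (rank 2305) and unc-44 (rank 2597).

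**Figure D2:**
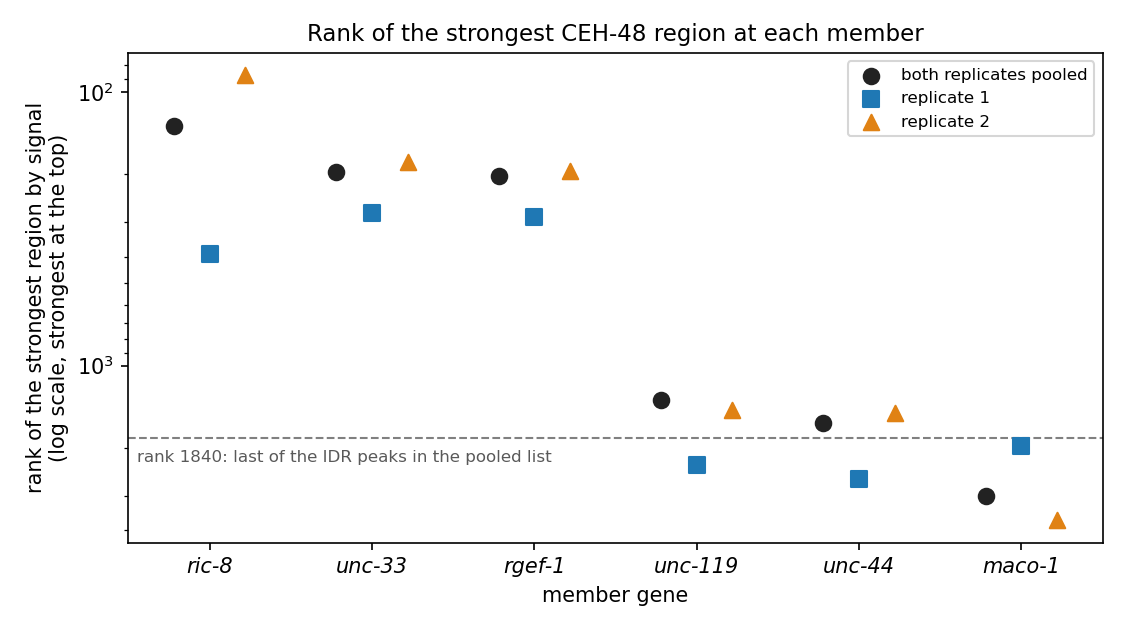
Rank by signal of the strongest region at each member (vertical axis, log scale, strongest at the top) in the pooled list and in each replicate's list; the dashed line is rank 1840, the last IDR peak of the pooled list. Ric-8, unc-33 and rgef-1 sit between ranks 87 and 390 in all 3 lists. Unc-119 and unc-44 are above the line in the pooled and replicate 2 lists. In replicate 1 they are below it, and maco-1 ranks ahead of both.

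The exchange factor gene rgef-1 (WBGene00009100, chrV:9556027-9561674, minus strand) had 1 IDR peak, at chrV:9561893-9562155 with its summit 342 bp upstream of the 5′ end, in intergenic DNA. Its signal was 318 in the pooled list (rank 203), 76.8 in replicate 1 (rank 287) and 237 in replicate 2 (rank 194). Both replicate summits lay within 1 bp of the pooled one, and the nearest annotated protein-coding 5′ end was that of rgef-1 itself. Only the rgef-1 window held this summit. The other 2 pooled regions of rgef-1 had signals of 21.6 and 21.7, close to the lowest of the pooled list (20.2). At the other end the gene overlaps ehbp-1, and no IDR summit of rgef-1 lay there.

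For ric-8 (WBGene00004367, chrIV:2642973-2650111, plus strand), the G protein regulator, the IDR peak had the highest signal of all member regions. The peak at chrIV:2641063-2641302 had a signal of 368 in the pooled list (rank 133), 66.2 in replicate 1 (rank 390) and 300.0 in replicate 2 (rank 87). Its summit lay 1787 bp upstream of ric-8, but only 61 bp upstream of a 5′ end of mdf-2, a spindle checkpoint gene, and also in the promoter window of nduv-3. The rule therefore counts for ric-8 a peak whose nearest 5′ end belongs to another gene, and these data do not tell which gene it serves. A further IDR peak lay just outside the ric-8 window, 3066 bp upstream of its 5′ end, with a signal of 356 (rank 145). There too the nearest 5′ end was that of mdf-2, at 864 bp. Inside the ric-8 gene body the only pooled region had a signal of 21.9 at 796 bp, with no summit within 100 bp in either replicate.

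The collapsin response mediator gene unc-33 (WBGene00006769, chrIV:3516886-3526602, plus strand) was the only member with 3 IDR summits. Of all protein-coding genes, 0.355% had at least 3, and in the longest window class 1.55% did. The strongest, at chrIV:3515656-3515915, lay in intergenic DNA 1089 bp upstream of the gene, and its signal was 324 in the pooled list (rank 196), 77.4 in replicate 1 (rank 278) and 243.8 in replicate 2 (rank 180). Its nearest 5′ end was that of unc-33, although the summit is also within 3 kb of the 5′ end of tsg-101, a gene of endosomal sorting. The 3 ranks of this region were close to those of the rgef-1 region.

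Both other IDR peaks of unc-33 lay inside the gene and were weaker. One, at chrIV:3521697-3522066, had its summit 4996 bp into the gene in intron 7 of 9 of the longest transcript, an intron shared by all 3 annotated transcripts. Its signal was 111 in the pooled list (rank 1310) and 103 in replicate 2 (rank 905, with the summit 75 bp away), and replicate 1 had no summit within 100 bp. The noncoding gene M57.3 also overlaps unc-33. The intron 7 peak was the only IDR peak of the members without a summit within 100 bp in one of the replicates. A replicate 1 region at chrIV:3521974-3522353 does overlap it, with its summit 282 bp away and a signal of 17.1 (rank 6332). Within 100 bp, however, that summit matches the neighbouring pooled region at 5197 bp, 81 bp away. Around the intron 7 peak the same intron of 3194 bp held 3 further pooled regions below the threshold, with signals of 38.6, 72.5 and 71.9 at 3721, 4304 and 5197 bp. The summit stretch, chrIV:3521832-3521932, has ATTGAT but no ATCGAT. The other peak, at chrIV:3524641-3525010, had a signal of 117 in the pooled list (rank 1212), 36.4 in replicate 1 (rank 1168) and 78.8 in replicate 2 (rank 1339). Its summit, 7940 bp into unc-33 in the last intron, lay inside a tRNA gene (WBGene00023115) and an annotated noncoding RNA (Y37E11C.3). The nearest protein-coding 5′ end was that of M57.2, at 2528 bp, and the window of M57.2 holds this summit too. Counting only summits whose nearest 5′ end is its own, unc-33 had 2. In the whole IDR list, 7.88% of summits were at most 200 bp from a tRNA gene. The part of the tRNA gene in this signal was not tested.

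Just below the threshold, unc-33 had the strongest member region outside the IDR list. It lay 2324 bp upstream, 5 bp inside the 5′ end of tsg-101, with a signal of 81.5 (rank 1959) in the pooled list and 69.8 (rank 1592) in replicate 2. Replicate 1 had no summit within 100 bp. A copy of ATCGAT was centred 9.5 bp from this summit. In all, unc-33 had 12 pooled regions, or 9.44 per 10 kb of window. Unc-44 had 6.81 per 10 kb, ric-8 2.96 and maco-1 2.60, against 3.82 over the longest class of genes, to which all 4 belong. In the class below, unc-119 had 9.68 and rgef-1 3.47 per 10 kb, against 3.51 over that class. The strain carries the tm4063 allele of unc-119, and what this does to the density there was not tested. Of the 9 regions of unc-119, 8 were below the threshold. The median signal of such regions was 25.5 at unc-119, 33.8 at unc-33 and 30.8 at unc-44, against 29.1 over all pooled regions below it.

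The ankyrin gene unc-44 (WBGene00006780, chrIV:5975557-6004857, plus strand) had the most pooled regions of the members, 22, and only 1 was an IDR peak. The gene overlaps 31 other annotated genes, none protein-coding. That peak, at chrIV:5974020-5974389, had its summit 1352 bp upstream of the 5′ end, with a signal of 93.6 in the pooled list (rank 1620), 23.8 in replicate 1 (rank 2597) and 72.6 in replicate 2 (rank 1492). The summit lies in the annotated noncoding RNAs B0350.67 and B0350.84, and the nearest protein-coding 5′ end was that of unc-44. Among the 21 regions below the threshold, signals ran from 22.9 to 60.7 with a median of 30.8. The strongest of these lay 10760 bp into the gene, with a signal of 60.7 (rank 3120) in the pooled list and 49.0 in replicate 2 and no summit within 100 bp in replicate 1. The large exon of 14975 bp that occurs in the longest transcript alone (exon 16 of 19) held 8 pooled regions, with signals of 22.9 to 33.5. None of the 8 annotated transcript 5′ ends of unc-44 had an IDR summit in its promoter window.

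For unc-119 (WBGene00006843, chrIII:10902641-10908935, plus strand), the single IDR peak lay inside the gene and not before it. The peak at chrIII:10906315-10906684 had a signal of 109.7 in the pooled list (rank 1330), 24.98 in replicate 1 (rank 2305) and 74.2 in replicate 2 (rank 1448), with both replicate summits within 5 bp. Its summit was 3859 bp from the gene's 5′ end but 44 bp inside the 5′ end of the shorter transcript M142.1a.1, in the coding part of exon 1 of 4 of that transcript. The same exon of 74 bp is exon 2 of 5 in the longest transcript. Of all IDR summits, 16.14% lay within 100 bp of a protein-coding transcript 5′ end. Many C. elegans transcripts are trans-spliced, so an annotated 5′ end can be a splice site and not where transcription starts. At the gene's own 5′ end, the promoter window held pooled regions with a highest signal of 28.7 (rank 16352). The strain carries the tm4063 allele of this gene, so its locus may differ from the reference sequence. Whether the transgene adds unc-119 sequence is not given in the sources used here. What either does to the signals at unc-119 was not tested.

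At maco-1 (WBGene00017066, chromosome I at 6598982 to 6607520, minus strand), which overlaps the noncoding gene D2092.15, no region reached the IDR list. The strongest of its 3 pooled regions lay 778 bp upstream of the 5′ end, with a signal of 62.3 in the pooled list (rank 2981), 26.8 in replicate 1 (rank 1970) and 42.2 in replicate 2 (rank 3673). Both replicates thus had a summit within 39 bp of it, and all 3 ranks were below the first 1840. The next, 1301 bp upstream, had a signal of 39.0 (rank 8043) and the remaining one, in the gene body, 25.3 (rank 20725). Every member had at least 1 pooled region, as did 69.8% of all genes, so being listed there sets no member apart.

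**Figure D3:**
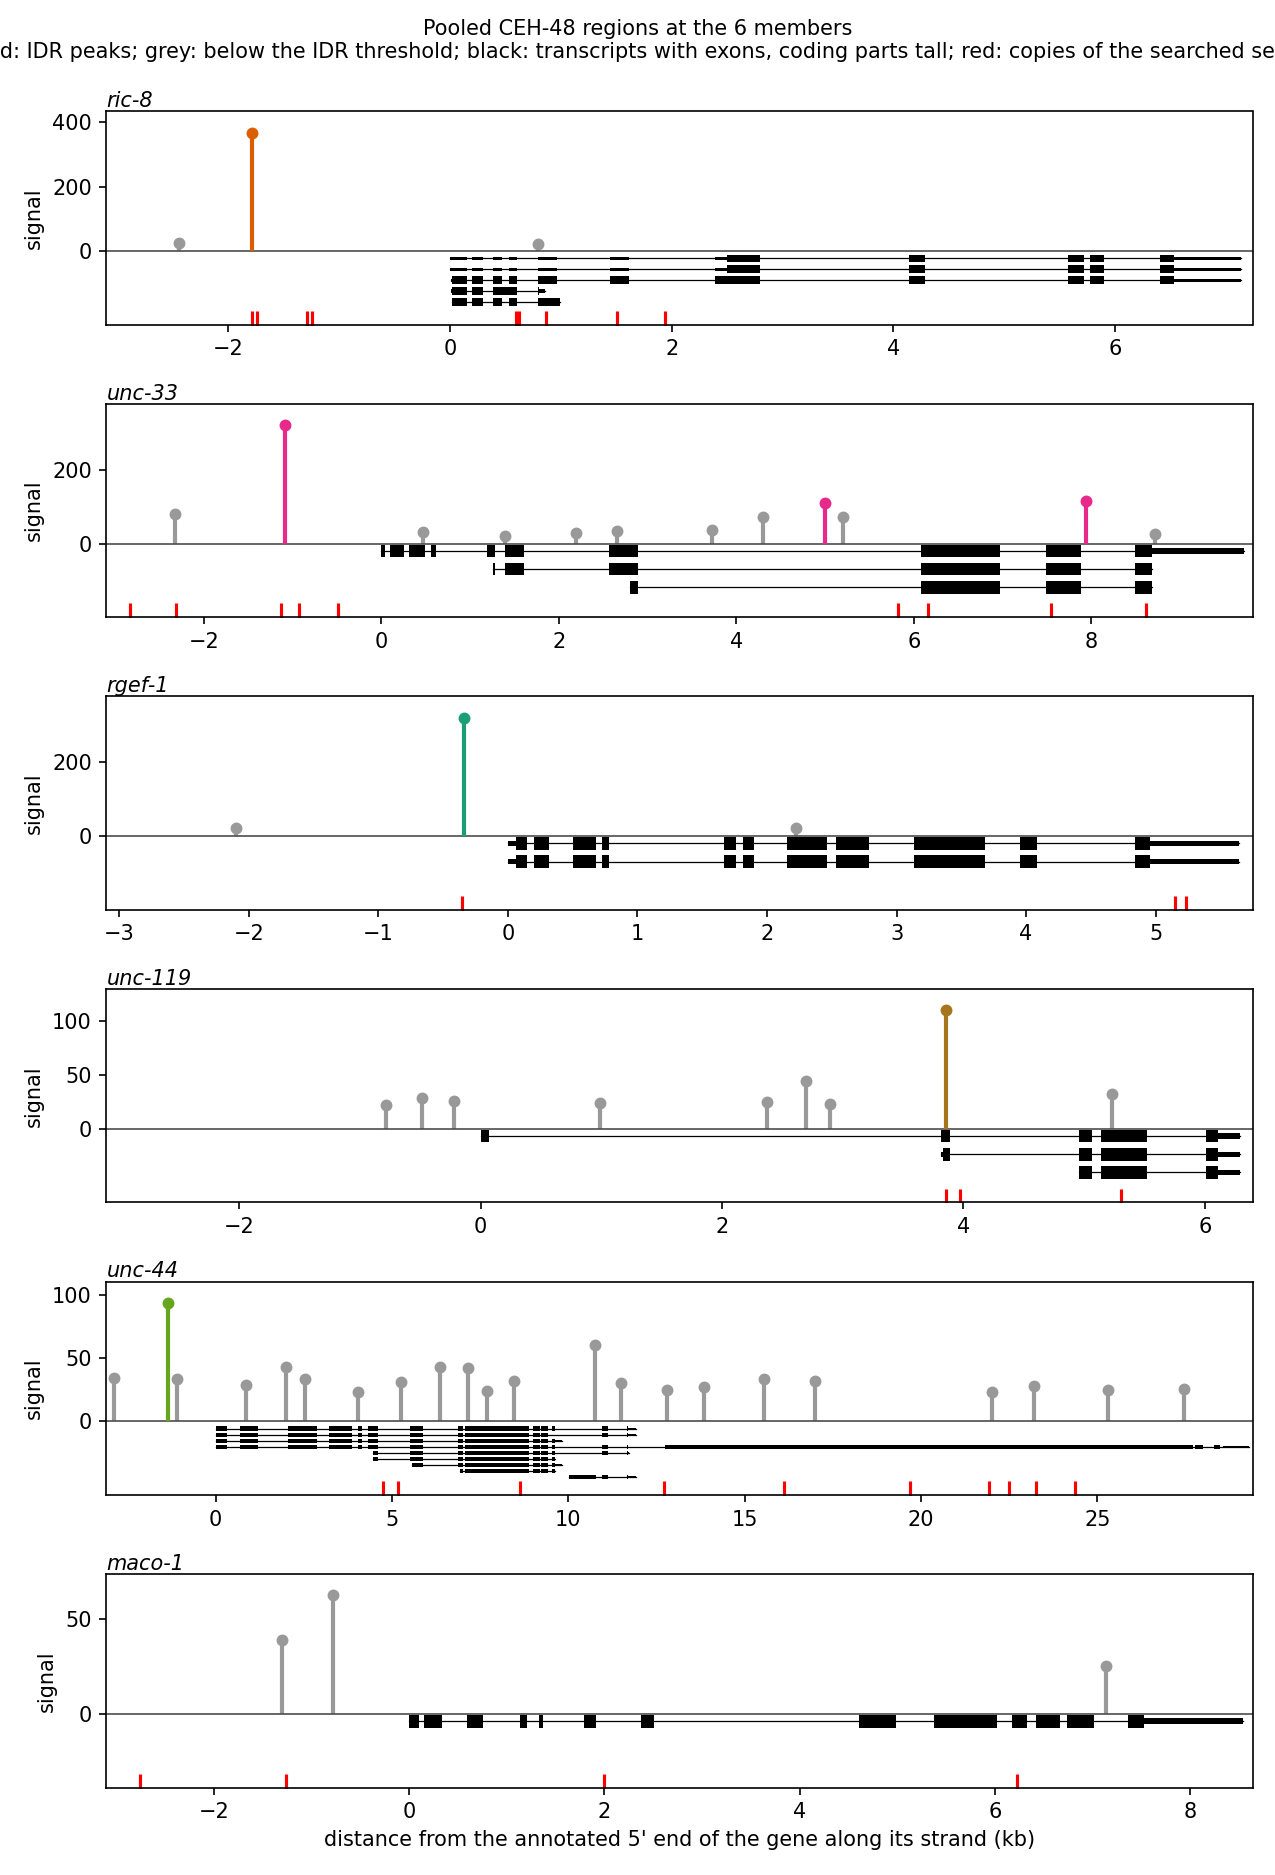
Pooled regions at each member, with the summit's distance from the annotated 5′ end along the gene's strand (horizontal axis, kb) and the signal in the pooled list (vertical axis, a separate scale for each gene). Coloured stems are IDR peaks, grey stems are regions below the threshold, black boxes are exons (coding parts taller) and red ticks are copies of ATCGAT. The IDR peaks of rgef-1, ric-8 and unc-44 and the strongest of unc-33 lie upstream of the gene, and that of unc-119 lies 3859 bp inside it.

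In the pooled list, the stronger peaks at the members were also the narrower ones. The 3 strong peaks were 240 to 263 bp wide and had the highest −log10 q-value found in the IDR list, 3.35, which 1117 of the 1840 IDR peaks share. The other 4 were 370 bp wide, the width of 60.16% of IDR peaks, and their −log10 q-values were 2.56 to 2.94. Every member region below the threshold was 370 bp wide too. In replicate 1 the same 3 strong regions were 380 bp wide, as were all member regions of that list.

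Of the 7 IDR summits at the members, 6 had a summit within 100 bp in replicate 1 and 7 in replicate 2, against 95.65% and 98.64% of all IDR peaks. Of the 45 member regions below the threshold, 17 had one in replicate 1, 32 in replicate 2 and 12 in both, against 37.77%, 67.79% and 21.13% of all such regions. For the 6 peaks in both lists, the log2 ratio of the replicate 2 signal to the replicate 1 signal was 1.11 at the unc-33 tRNA peak, 1.57 at unc-119, 1.61 at unc-44, 1.63 at rgef-1, 1.65 at the upstream unc-33 peak and 2.18 at ric-8. Over the 1737 IDR peaks in both lists the median was 1.42 with an SD of 0.58. All 6 values were inside the range from the 5th to the 95th percentile of these peaks, 0.51 to 2.45. The lists may differ in scale, so only a peak's place among the others can be read from this ratio.

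**Figure D4:**
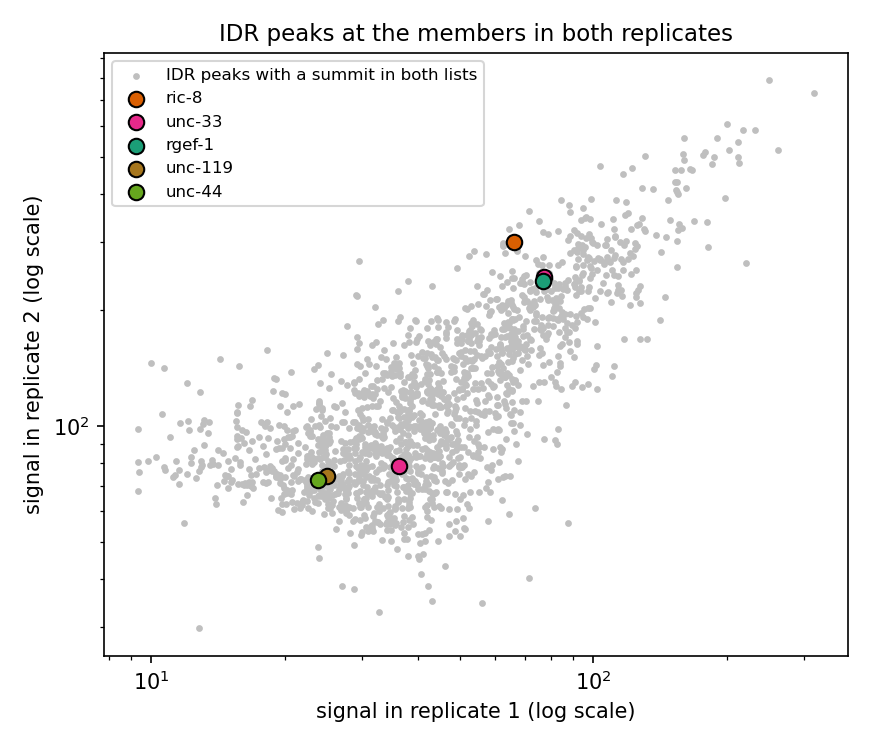
Signal in replicate 1 (horizontal axis) and replicate 2 (vertical axis), both on log scales, for the 1737 IDR peaks with a summit within 100 bp in both lists (grey) and the 6 of them at the members (coloured). Ric-8, rgef-1 and the upstream unc-33 peak lie among the higher signals of both replicates, and unc-119 and unc-44 lie at 24.98 and 23.8 in replicate 1.

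ATCGAT, which reads the same on both strands, lay wholly within 50 bp of the summit at 4 of the 7 member IDR peaks, and at 44.29% of all IDR peaks. The 4 were the peaks of rgef-1, ric-8 and unc-119 and the upstream peak of unc-33. At member regions below the threshold it did so at 2 of 45, and at 9.29% of all regions below the threshold. Of windows of the same 101 bp tiled over the nuclear genome, 3.34% held it. With ATTGAT on either strand allowed as well, 5 of the 7 member peaks had a copy, the addition being the peak in intron 7 of unc-33, against 62.5% of IDR peaks and 13.25% of genome windows. The unc-44 peak and the unc-33 peak at the tRNA gene had neither sequence within 50 bp.

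Seen from the sequence, most copies at the members had no peak. The 6 windows held 38 copies of ATCGAT, of which 5 (13.2%) were centred within 50 bp of an IDR summit, against 1243 of 37650 copies (3.30%) in the nuclear genome. The members were chosen with earlier results known, and 5 of the 6 windows hold an IDR summit. A share above that of the genome is therefore built into the choice and is no result about the copies. Unc-44 had 10 copies and none at a summit of the pooled list. Ric-8 had 9, of which 2 lay at its IDR peak, and unc-33 had 9, of which 1 did. Rgef-1 and unc-119 each had 3 copies and 1 at a peak, and the 4 of maco-1 included 1 within 50 bp of a pooled summit. In promoter windows, unc-33 had 2 copies and rgef-1 had 1, while the other 4 members had none. Of all genes, 34.67% had at least 1.

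Genes that work with the members were described by the same window, in 5 lists of 99 genes that hold none of the 6. Whether another gene's 5′ end lies nearer the summit was not checked for these genes, so a counted peak may belong to a neighbour. The lists were chosen with earlier results of these data known, so their counts are descriptions and no support for a preference. Over all protein-coding genes, 13.5% had an IDR summit in the window and 6.29% in the promoter window. In the longest window class, 23.74% had one in the window. Of 24 further pan-neuronal marker and effector genes, 16 had an IDR summit, 10 of them in the promoter window. The highest signals were 691 at unc-69, a coiled-coil protein of axon outgrowth, 686 at egl-3, a proprotein convertase, 612 at unc-16, a kinesin cargo adaptor, and 444 at unc-18, a regulator of SNARE assembly. All of these exceed the strongest member peak, 368 at ric-8. Of 29 genes of the axonal cytoskeleton and its membrane partners, 14 had an IDR summit, 8 in the promoter window. The highest were 440 at unc-115, an actin-binding protein, 439 at unc-51, a kinase of axon outgrowth, 308 at unc-70, the beta spectrin, and 254 at klc-2, a kinesin light chain. UNC-70 and UNC-44 belong to the same membrane skeleton, and the unc-44 peak had a signal of 93.6.

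Among the genes around RIC-8, 11 of 23 in heterotrimeric G protein signalling had an IDR summit, 3 of them in the promoter window. The highest were 674 at eat-16, a regulator of G protein signalling, 570 at gpc-2, a gamma subunit, 490 at egl-30, the Gq alpha subunit, and 375 at gpb-1, a beta subunit. Of 16 genes in Ras and Rap signalling, the pathway of RGEF-1, 4 had one and none in the promoter window. Their signals were 334 at rap-2, 121 at rgl-1, 107 at mpk-1 and 92.7 at gap-3. Of 7 genes listed around UNC-119, for the carrying of lipid-modified cargo and for tubulin folding, pdl-1 alone had one, with a signal of 287. Of all genes, 13.5% had an IDR summit in the window and 6.29% in the promoter window. The median window was 6001 bp over all genes and in the list around UNC-119. In the other lists it ran from 9358.5 to 11500 bp. In windows of 7321 to 9772 bp, 18.73% of genes had an IDR summit, and in longer ones 23.74%. The Ras and Rap share, 25%, was near the latter, and the share around UNC-119, 14.29%, was near that of all genes.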

How the data were processed

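ChIP-seq regions were given as narrowPeak lists for each replicate, for both pooled and as IDR peaks. According to the deposited read-me files, regions (peaks together with background) were called from the alignments of a replicate or of both, and 1 additional input file went into every list. The signal and the −log10 q-value of a region are the authors' deposited values. The sources used here name no aligner, peak caller, IDR threshold or read numbers. Depth is therefore unknown, and no interval was computed. Summits are the start plus the summit offset, 1-based, on ce11, and were set against the Ensembl release 115 annotation and the RefSeq WBcel235 sequence. The ce10 lists were not used. Summits of different lists were matched when at most 100 bp apart. The replicate lists alone were read as their first 1840 regions. The members, gene lists and rules were chosen with earlier results of these data known. Named were all members, up to 4 genes per list with the highest IDR signal, and genes that overlap a member or share its summit, except the noncoding genes that overlap unc-44, which are counted, and a piRNA gene that overlaps rgef-1. The noncoding RNAs, and the peak just outside the ric-8 window, were named after their values were seen. Counting was tested on simulated data. Python 3.11.15, numpy 2.4.6, pandas 2.3.3 and matplotlib 3.10.9 were used.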

Additional observations from a re-analysis of the deposited data

How the results depend on the processing

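The counts depended mostly on the window. With 1 kb in place of 3 kb around the 5′ end, 3 members had an IDR summit and 4 summits were counted, against 5 members and 7 summits as reported. Gene bodies alone gave 2 members and 3 summits, promoter windows 1 and 1, and promoter windows of all annotated transcripts 2 and 2 (rgef-1 and unc-119). A window of 5 kb gave 5 members and 8 summits. The 920 IDR peaks with the highest signal left 3 members and 3 summits. Taking the first 1840 regions of 1 replicate in place of the IDR peaks gave 3 to 5 members, 4 to 8 summits, 2 to 4 summits with ATCGAT within 50 bp and 2 to 5 copies at a summit. The low ends came from replicate 1 alone, where unc-44, unc-119 and the intron 7 peak of unc-33 dropped out. Its summits at the upstream unc-33 peak and the ric-8 peak also lay 7 and 18 bp from the pooled ones. The unc-33 copy and the second ric-8 copy, 44.5 and 49.5 bp from the pooled summits, were then beyond 50 bp. Requiring a copy's centre within 25 bp of an IDR summit left 3 copies in place of 5. The narrower windows, the smaller distance and the 920 peaks admit fewer positions or peaks by construction. Why ranks and summits differ between the single replicates was not tested. After the data were seen, leaving out summits whose nearest 5′ end belongs to another gene gave 4 members and 5 summits, since ric-8 then had none, and leaving out those at tRNA genes gave 5 and 6. No paired analysis was possible because the series has 1 group. With 2 replicates, no control group and depth unknown, differences between neighbouring ranks cannot be told from counting noise.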
